A study of Triticum turgidum subsp. durum with 32 samples.

Results

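The comparison described here asked which loci respond differently when wheat loses phytochrome B and when it loses phytochrome C. It used all 32 RNA-seq libraries of the series, 16 from the *PHYB* lines and 16 from the *PHYC* lines, in 8 groups of 4. All libraries came from the third leaf, once fully extended, of 4-week-old plants of Kronos, a tetraploid wheat with an A and a B genome, grown under 16 h of light and 8 h of dark. The leaves were taken 4 h after the light period began. The *phyB*-null plants carry premature stop codons in both *PHYB-A* and *PHYB-B*, from a mutagenized population, and the *phyC*-null plants lack functional *PHYC*. Each mutant was set against wild-type sister plants of its own line, so there were 4 genotypes, the wild type and the mutant of each line, each in experiments 1 and 2, and the comparisons share no control library. The *PHYB* and the *PHYC* experiments were run separately, so a gap between lines and a gap between growth runs cannot be told apart. The difference at a locus is the log2 fold change of *phyB*-null against its wild type minus that of *phyC*-null against its wild type, averaged over both experiments. A positive difference therefore means a higher, or less negative, change in *phyB*-null.

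Phytochromes are photoreceptors that absorb red and far-red light and switch between an inactive and an active form. In grasses they take part in day-length sensing, in the response to shade and in the growth of leaves and stems. In wheat the photoperiod regulator PPD1 promotes the expression of *FT1*, which encodes a mobile flowering signal, and VRN1 is a MADS-box transcription factor that promotes flowering.

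Reads assigned to loci ranged from 21643708 to 47695062 per library in the *PHYB* lines and from 15961572 to 27926101 in the *PHYC* lines, and the correlation of log2 counts between replicates of a group ranged from 0.899 to 0.995. Of 150754 loci, 90331 had at least 3 reads in at least 2 libraries and were tested with edgeR's quasi-likelihood test, at a threshold of 0.01 on the P value adjusted by the Benjamini-Hochberg method over all tested loci. Levels are given as normalized counts, which are reads divided by the scaled size of the library. The SE given with a difference was derived from the test, as the absolute difference divided by the square root of the F statistic. It restates the P value on the log2 scale and is not a separate estimate of spread. All 5 loci taken as leaf markers had reads in all 32 libraries. The 4 that encode Rubisco-binding chaperonin subunits were lower in *phyB*-null on average than in each of the other genotypes, for example *Traes_4AL_B6C20BAB9* at means of 4951 in *PHYB* wild type, 2194 in *phyB*-null, 5697 in *PHYC* wild type and 6598 in *phyC*-null. The fifth, *td-k61_contig_63190*, of a chlorophyll a-b binding protein, was instead higher in *phyB*-null than in its wild type, at 17.3, 39.8, 35.6 and 46.6 in the same order. The part of these levels in the results was not tested.

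The transcript of *PHYB-A* (chromosome 4A, 97979542 to 97987720), 1 of the mutated genes, checked the labels. Its lowest, median and highest normalized counts were 375, 394 and 459.8 in *PHYB* wild type, 153, 172 and 202 in *phyB*-null, 307, 378 and 468 in *PHYC* wild type and 364, 384.5 and 430.4 in *phyC*-null. All 8 *phyB*-null libraries lay below the other 24, and the difference was -1.24 ± 0.11 (SE; adjusted P = 2.6e-09 in edgeR). The mutations are stop codons, so the transcript can still be made. *PHYA-A*, a phytochrome A gene, rose by 1.16 on the log2 scale in *phyB*-null, against 0.28 in *phyC*-null, with a difference of 0.88 ± 0.21 (SE; adjusted P = 0.00534 in edgeR). That call was lost without *PHYC* wild type replicate 1 or 4 of experiment 1, replicate 1 or 2 of experiment 2, or *phyC*-null replicate 4 of experiment 1, where the adjusted P reached at most 0.0131.

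The effects of the mutations differed at 5379 of the 90331 loci, which is 5.95% of those tested. The difference was positive at 2337 loci (2.59%) and negative at 3042 (3.37%). Its median size among the differing loci was 1.16 on the log2 scale, with quartiles of 0.78 and 1.90, and it reached at least 1 at 3163 loci. Regardless of sign, the larger change was in *phyB*-null at 4354 differing loci (80.9%) and in *phyC*-null at 1025. Over all tested loci the larger change was in *phyB*-null at 60.2%, and the median difference was -0.000679. Taken singly, the *phyB*-null effect passed the threshold at 20865 loci (23.1%) and the *phyC*-null effect at 4608 (5.1%). The last count was 2992 without *phyC*-null replicate 3 of experiment 2. With every library thinned to the smallest total, the effects differed at 4338 loci.

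**Figure D1:**
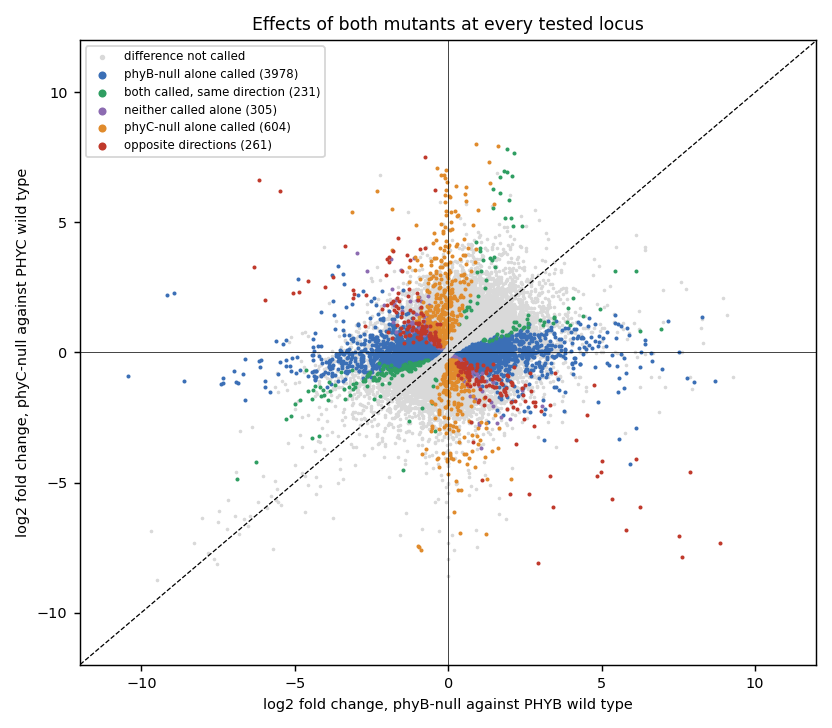
Log2 fold change of *phyC*-null against its wild type (y axis) and of *phyB*-null against its wild type (x axis) at each of the 90331 tested loci, with differing loci coloured by the mutants in which they were called, loci with no called difference in grey, and a dashed line at equal effects. Most coloured points lie along the horizontal axis (3978 loci called in *phyB*-null alone), and fewer lie along the vertical axis (604 called in *phyC*-null alone). Another 261 were called in both mutants with opposite signs.

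By the calls in each mutant, the differing loci fell into 5 kinds. The largest kind was called in *phyB*-null and not in *phyC*-null, with 1730 loci higher and 2248 lower. The higher loci had a median log2 fold change of 1.07 in *phyB*-null, against -0.09 in *phyC*-null, and the lower loci of -1.02 against -0.01. Loci called in *phyC*-null and not in *phyB*-null numbered 330 higher, with medians of 1.80 in *phyC*-null and -0.14 in *phyB*-null, and 274 lower, with medians of -1.13 and 0.16. Opposite changes were found at 261 loci, of which 133 rose with the loss of phytochrome B and fell with that of phytochrome C and 128 did the reverse. Another 231 loci changed in the same direction to a different extent, and 305 passed the threshold in the difference but in neither mutant singly. A locus not called in a mutant is not shown to be unaffected there.

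Where both mutants changed alike in sign, the falls were mostly deeper in *phyB*-null. Among differing loci that fell in both, the fall was larger in *phyB*-null at 147 and in *phyC*-null at 8. Of the 76 that rose in both, the rise was larger in *phyB*-null at 40 and in *phyC*-null at 36. In all, 2302 loci had calls of like sign in the mutants, and the effects differed at 231 of them (10.03%). Of all *phyB*-null calls 21.4%, and of all *phyC*-null calls 23.8%, differed between the mutants. These wider sets include the 261 loci called with opposite signs, which all differed. The calls use the same values as the difference, so the choice of a set shapes its share. The shares describe the sets and do not test them.

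Because the mutants share no library, the change in one could be read at loci called in the other. At the 10433 loci (11.5%) higher in *phyB*-null, 78.0% had a log2 fold change above 0 in *phyC*-null, beside 51.3% of all tested loci, and the median was 0.28 against 0.93 in *phyB*-null. At the 10432 loci (11.5%) lower in *phyB*-null, 80.1% were below 0 in *phyC*-null, beside 48.6%, and the median was -0.22 against -0.75. The loci called in *phyC*-null gave similar shares in *phyB*-null, 78.8% of the 2143 higher loci (2.37%) and 81.8% of the 2465 lower loci (2.73%), beside 52.1% and 47.9% of all loci. Their medians in *phyB*-null were 0.57 and -0.45, against 1.07 and -0.71 in *phyC*-null. The direction was mostly shared, with a smaller median in the second mutant, and each set was chosen on its value in the first. Across the 33469 loci with a mean of at least 50 normalized counts, Pearson's r of the effects was 0.45, a description across loci measured in the same libraries.

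The genes named in the following paragraphs are 92 genes in 16 lists. Apart from *PHYB-A* and *PHYA-A*, the study named them from these same libraries for their change in one or both mutants, so their counts are not independent evidence of a direction. The difference was positive at 41 of the 92, negative at 20 and not called at 31. Over all tested loci it was positive at 2.59% and negative at 3.37%. The wild types of the lines were called apart at 33 of the 92, beside 17.9% of all tested loci. At 6 of the genes the 16 *PHYC* libraries held at most 4 reads. Of the other 86 the difference was called at 61 (70.9%), beside 5.95% of all tested loci. Of these 61 calls, 53 were kept whichever single library was left out. Those lost were *FT-like_chr3-A*, *GA2ox-A11*, *ACC synthase-A*, *PYL4-like-B1*, *PYL4-like-B2*, *LNG-1-like-A*, *GT-A1* and *PHYA-A*.

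**Figure D2:**
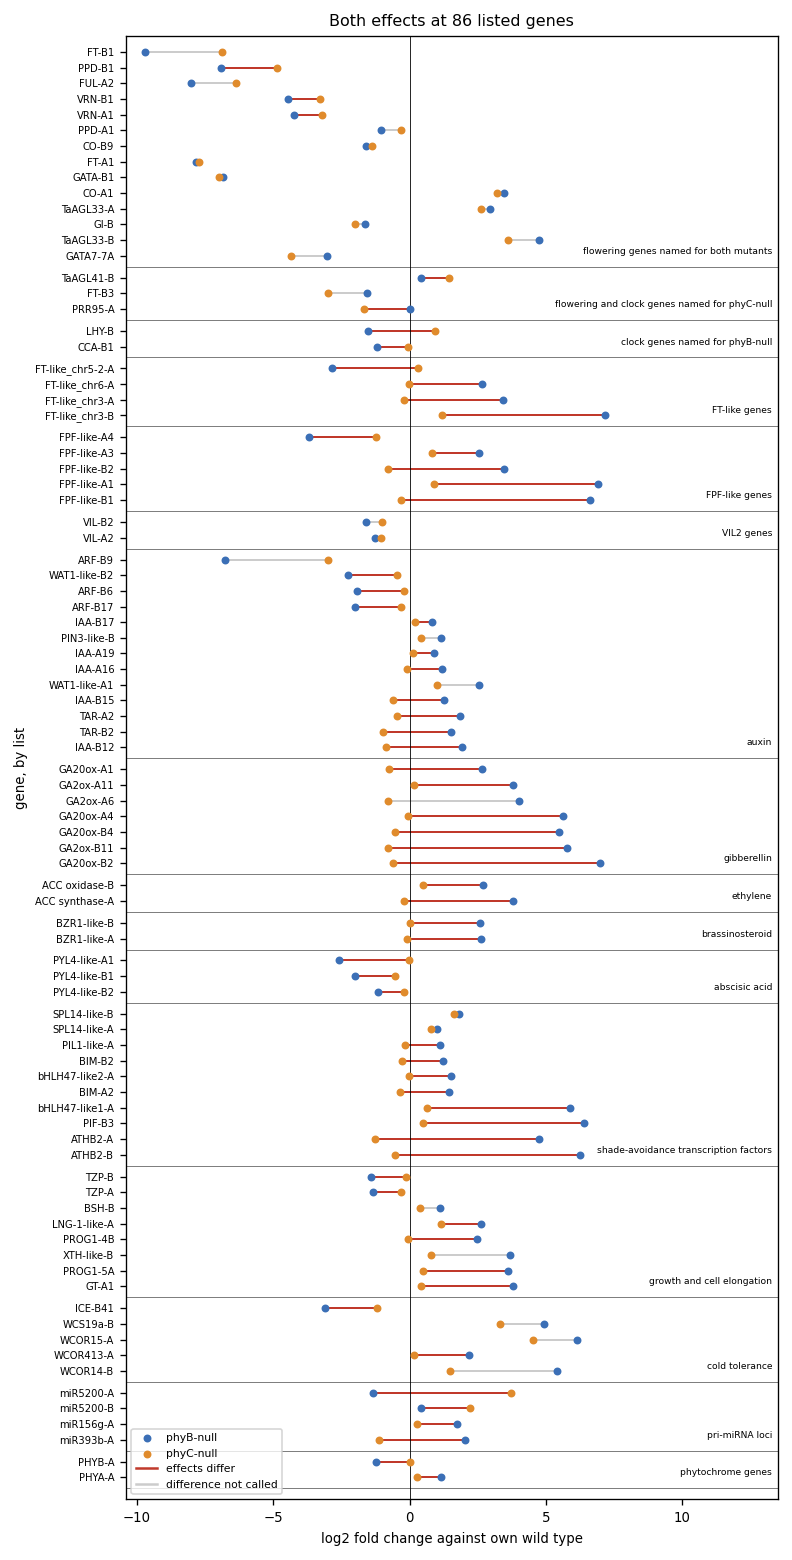
Log2 fold change against the own wild type (x axis) in *phyB*-null (blue points) and *phyC*-null (orange points) at 86 listed genes (y axis, grouped by list), joined by a red line where the effects differ at an adjusted P of 0.01 and by a grey line where the difference was not called. The flowering genes at the top have both points on the same side of 0, whereas the gibberellin genes have *phyB*-null points from 2.65 to 6.97 and *phyC*-null points from -0.79 to 0.15.

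The log2 fold changes of the 14 flowering genes named for both mutants had the same sign in each. The change was called at 14 in *phyB*-null and at 13 in *phyC*-null, beside 23.1% and 5.1% of all tested loci. The effects differed at 3 of the 14, beside 5.95% of all tested loci, each with the deeper fall in *phyB*-null. The median difference of the list was -0.15. *PPD-B1* (chromosome 2B, 17854421 to 17855929) had a lowest, median and highest normalized count of 2760.3, 4173 and 4942 in *PHYB* wild type, 23.1, 34.4 and 45.9 in *phyB*-null, 2104, 2892 and 3551 in *PHYC* wild type and 47.4, 93.8 and 172 in *phyC*-null. Both mutants lay far below both wild types, and the *phyB*-null range lay below that of *phyC*-null. The log2 fold changes were -6.90 and -4.87, with a difference of -2.03 ± 0.25 (SE; adjusted P = 8.61e-07 in edgeR). *PPD-A1*, its A copy, had -1.05 and -0.32, and the difference of -0.73 was not called (adjusted P = 0.077 in edgeR).

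*VRN-A1* was 4326, 4952 and 5585 in *PHYB* wild type, 208, 262 and 325 in *phyB*-null, 1771, 3124 and 4749 in *PHYC* wild type and 242, 358 and 427 in *phyC*-null. The mutants overlapped, and the wild types overlapped at the top of the *PHYC* range. Its difference was -0.99 ± 0.18 (SE; adjusted P = 0.000257 in edgeR), and that of *VRN-B1* was -1.15 ± 0.20 (SE; adjusted P = 0.00019 in edgeR). The wild types also differed at *VRN-A1*, by 0.62 on the log2 scale (adjusted P = 0.000346 in edgeR).

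The *FT1* genes were close to absent in both mutants. *FT-A1* was 212, 339 and 1392 in *PHYB* wild type, 0.769, 1.36 and 4.24 in *phyB*-null, 168, 305 and 903 in *PHYC* wild type and 0, 1.58 and 4.37 in *phyC*-null, and its difference was -0.12 ± 1.13 (SE; adjusted P = 0.983 in edgeR). *FT-B1* had 9 reads over the 8 *phyB*-null libraries and 19 over the 8 *phyC*-null libraries, and its difference of -2.81 ± 0.83 (SE) was not called by edgeR (adjusted P = 0.0233), although DESeq2 called it (adjusted P = 0.000722). *FT-A1* kept 21 and 12 reads in the mutants, and neither tool called its difference. *FUL-A2*, a FRUITFULL-type MADS-box gene, likewise kept 22 and 23 reads in the mutants.

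The 3 genes of the list that rose rose in both mutants, and no difference was called. *CO-A1*, a CONSTANS-type gene, had log2 fold changes of 3.48 and 3.22, with a difference of 0.26 ± 0.32 (SE). *TaAGL33-A* and *TaAGL33-B*, MADS-box genes, had differences of 0.33 ± 0.39 and 1.14 ± 0.54 (SE). Other genes fell in both with no called difference, among them *GI-B*, of the GIGANTEA family of clock genes, at -1.65 and -2.02, *GATA-B1* at -6.83 and -6.97, *GATA7-7A* at -3.04 and -4.34 and *CO-B9* at -1.58 and -1.39. *GATA7-7A* held 32 and 4 reads in *PHYB* wild type and *phyB*-null and 25 and 1 in *PHYC* wild type and *phyC*-null. These levels are far below those the study gives for its GATA gene of the same transcript. The locus may not be the one the study names, and its place in the list is uncertain.

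The *VIL2* genes, related to Arabidopsis genes of the vernalization pathway, fell in both mutants. The difference of *VIL-A2* was -0.21 ± 0.15 (SE; adjusted P = 0.422 in edgeR) and that of *VIL-B2* was -0.60 ± 0.16 (SE; adjusted P = 0.0115 in edgeR). *VIL-B2* passed the threshold in DESeq2 (adjusted P = 0.00412) and, in edgeR, without *PHYB* wild type replicate 3 of experiment 1 or 4 of experiment 2, *PHYC* wild type replicate 1 of either experiment, or *phyC*-null replicate 3 of experiment 2, with differences of -0.69 to -0.54 over the 32 fits.

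The effects differed at both clock genes named for *phyB*-null and at *PRR95-A*, whereas at *GI-B*, given above, no difference was called. No other time of day was sampled, so a change in timing and a change in level cannot be told apart. CCA1 and LHY are MYB-related transcription factors of the morning loop of the clock, and PRR95 is a pseudo-response regulator. *LHY-B* (chromosome 6B, 177200675 to 177201717) was 69.5, 94.6 and 187 in *PHYB* wild type, 27.7, 36.7 and 57.3 in *phyB*-null, 25.5, 42.7 and 92.1 in *PHYC* wild type and 49.4, 84.9 and 129.6 in *phyC*-null. It fell in *phyB*-null (-1.53), without overlap, and rose in *phyC*-null (0.94), with overlap, a difference of -2.47 ± 0.23 (SE; adjusted P = 2.74e-09 in edgeR). The wild types differed as well (adjusted P = 7.45e-07 in edgeR). *CCA-B1* fell by 1.18 on the log2 scale in *phyB*-null and had -0.06 in *phyC*-null, a difference of -1.13 ± 0.12 (SE). Its wild types differed by 0.62 on the log2 scale (adjusted P = 3.14e-06 in edgeR) and its mutants by -0.51 (adjusted P = 2.73e-05 in edgeR).

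*PRR95-A* (chromosome 5A, 94307950 to 94311963) changed in *phyC*-null alone. It was 374, 824 and 1367 in *PHYB* wild type, 378, 869 and 1568 in *phyB*-null, 1249, 1749 and 2499.7 in *PHYC* wild type and 404, 486 and 1032 in *phyC*-null. The *PHYB* genotypes overlapped throughout, whereas the *PHYC* genotypes did not overlap. The difference was 1.68 ± 0.24 (SE; adjusted P = 7.42e-06 in edgeR), and it was 1.58 to 1.79 over the 32 fits without a single library. *PHYB* wild type was below *PHYC* wild type, by -1.16 on the log2 scale (adjusted P = 4.16e-06 in edgeR). The gap between the mutants, 0.53, was not called (adjusted P = 0.0136 in edgeR). In the *PHYB* lines the gene was lower in experiment 1, at 374 to 664 in wild type and 378 to 773 in *phyB*-null, than in experiment 2, at 984 to 1367 and 964 to 1568. *TaAGL41-B*, a MADS-box gene, was called in *phyC*-null alone, at 1.45 against 0.40 in *phyB*-null. Its wild types differed by 0.90 on the log2 scale (adjusted P = 0.000175 in edgeR). Its mutants were not called apart (-0.15, adjusted P = 0.503 in edgeR). The difference was -1.04 ± 0.23 (SE; adjusted P = 0.00253 in edgeR). This call was lost with library totals in place of factors (adjusted P = 0.0117 in edgeR), without any 1 of the 4 replicate numbers (0.0115 to 0.0275) and when each experiment had to pass. *FT-B3*, an FT-family gene, fell in both mutants, and its difference of 1.42 was not called (adjusted P = 0.0302 in edgeR) except without *PHYC* wild type replicate 4 of experiment 1 (adjusted P = 0.00445 in edgeR).

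**Figure D3:**
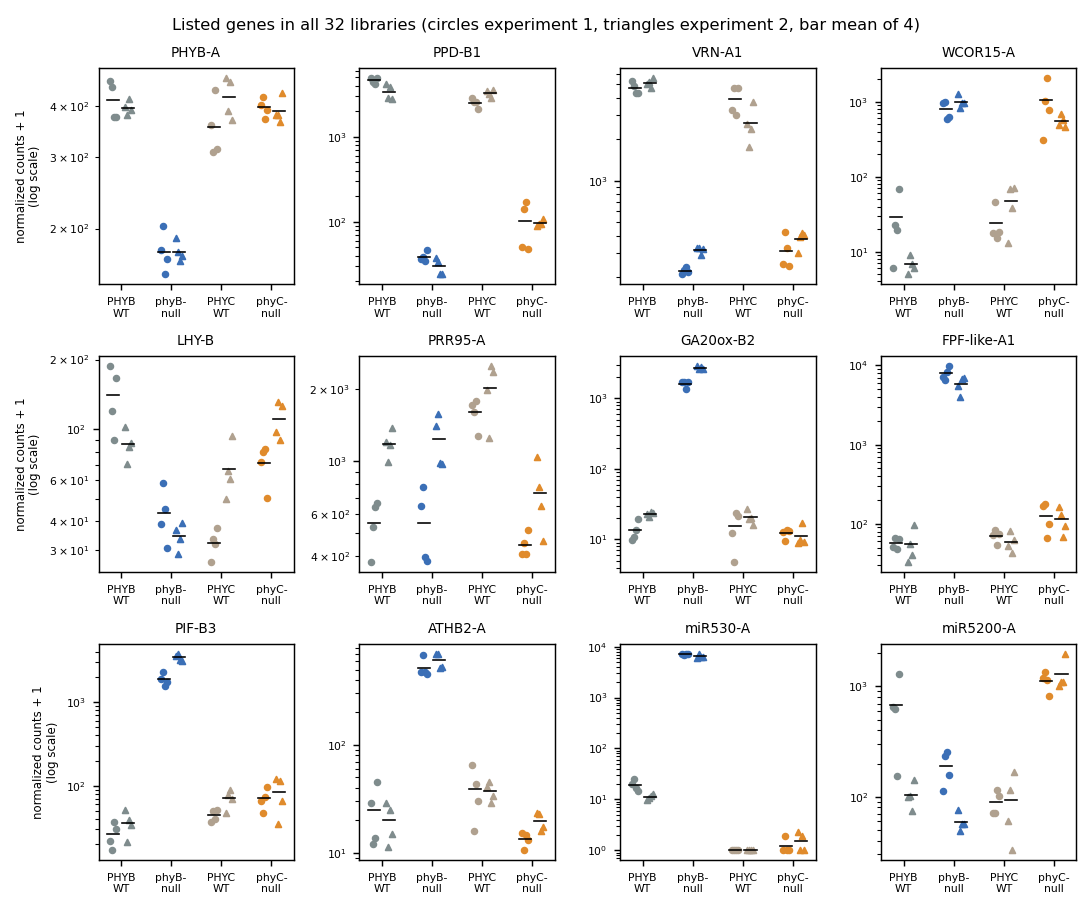
Normalized counts plus 1 (y axis, log scale, a separate range in each panel) of 12 listed genes in every library, by genotype (x axis), with experiment 1 as circles, experiment 2 as triangles and a bar at the mean of 4 libraries. *PPD-B1* and *VRN-A1* are low in both mutants, *GA20ox-B2*, *FPF-like-A1*, *PIF-B3* and *ATHB2-A* are high in *phyB*-null, and *miR5200-A* is high in *phyC*-null.

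Of the FT-like genes, relatives of the *FT1* signal, 3 of 6 had a positive and 1 a negative difference, beside 2.59% and 3.37% of all tested loci. In *phyC*-null 0 of 6 were called, near the 5.1% of all loci. *FT-like_chr3-B* was 0.911, 1.25 and 5.32 in *PHYB* wild type, 207, 266 and 327 in *phyB*-null, 0, 1.96 and 5.78 in *PHYC* wild type and 1.87, 4.27 and 15.2 in *phyC*-null. It was above 200 in *phyB*-null alone, and the difference was 5.96 ± 0.78 (SE; adjusted P = 2.4e-06 in edgeR). *FT-like_chr6-A* had a difference of 2.68 ± 0.32 (SE). *FT-like_chr5-2-A* went the other way, with -2.84 in *phyB*-null, 0.33 in *phyC*-null and a difference of -3.17 ± 0.40 (SE). The call of *FT-like_chr3-A* (3.63) was lost without *PHYC* wild type replicate 1 of experiment 1 (adjusted P = 0.0268 in edgeR).

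FPF-like genes, named after a flowering promoting factor of Arabidopsis, differed at 5 of 5 members, beside 5.95% of all tested loci. *FPF-like-A1* (chromosome 2A, 182414529 to 182415214) was 31.6, 52.1 and 94.9 in *PHYB* wild type, 4027, 6849.6 and 9873 in *phyB*-null, 41.8, 67.4 and 82.1 in *PHYC* wild type and 64.5, 112 and 175 in *phyC*-null. It rose in both mutants, by 6.92 in *phyB*-null, without overlap, and by 0.89 in *phyC*-null, with overlap, and the difference was 6.03 ± 0.31 (SE; adjusted P = 1.87e-15 in edgeR). *FPF-like-B1* rose by 6.64 in *phyB*-null and had -0.31 in *phyC*-null. *FPF-like-B2* rose by 3.47 in *phyB*-null and fell by 0.79 in *phyC*-null. *FPF-like-A3* had a difference of 1.75 ± 0.38 (SE). *FPF-like-A4* fell in both mutants, by 3.69 and 1.25, with a difference of -2.44 ± 0.41 (SE).

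All 7 gibberellin genes rose in *phyB*-null, beside 11.5% of all tested loci. In *phyC*-null 0 of 7 were called, beside 5.1% of all loci, so this count is near the background. GA20ox enzymes act in the synthesis of gibberellins and GA2ox enzymes inactivate them, and both families were on the list. The difference was positive at 6 of 7, beside 2.59% of all loci, with a list median of 5.69 beside -0.000679 over all tested loci. *GA20ox-B2* (chromosome 3B, 622838472 to 622841712) was 8.96, 19.3 and 23.7 in *PHYB* wild type, 1355, 2139.8 and 2893 in *phyB*-null, 3.73, 18.7 and 25.8 in *PHYC* wild type and 7.80, 10.2 and 15.9 in *phyC*-null. All 8 *phyB*-null libraries were above the other 24, and the difference was 7.59 ± 0.29 (SE; adjusted P = 6.24e-19 in edgeR). *GA20ox-A1*, *GA20ox-A4* and *GA20ox-B4* had differences of 3.39 ± 0.41, 5.69 ± 0.71 and 6.02 ± 0.91 (SE).

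Among the GA2ox genes, *GA2ox-B11* had a difference of 6.56 ± 0.76 (SE), from mean normalized counts of 0.518 in *PHYB* wild type, 32.09 in *phyB*-null, 3.12 in *PHYC* wild type and 1.84 in *phyC*-null. *GA2ox-A11* had 3.66 ± 0.94 (SE; adjusted P = 0.00891 in edgeR), and this call was lost in 20 of the 32 fits without a single library. *GA2ox-A6*, at 12 reads over the *PHYC* libraries, was not called by edgeR (adjusted P = 0.0859) and was called by DESeq2 (adjusted P = 0.000294).

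Transcription factors of the shade-avoidance response had a positive difference at 8 of 10 genes, beside 2.59% of all tested loci. PIF proteins are bHLH factors that bind active phytochrome, and ATHB2 is a homeodomain-leucine zipper factor induced by shade in Arabidopsis. *PIF-B3* (chromosome 1B, 107847405 to 107850536) was 15.8, 30.9 and 49.5 in *PHYB* wild type, 1546, 2718 and 3805 in *phyB*-null, 35.4, 49.06 and 88.7 in *PHYC* wild type and 33.5, 68.5 and 118 in *phyC*-null. Only the *phyB*-null libraries stood out, and the difference was 5.93 ± 0.29 (SE; adjusted P = 4.8e-16 in edgeR). *ATHB2-A* was 10.4, 18.7 and 43.9 in *PHYB* wild type, 450.4, 523 and 699 in *phyB*-null, 14.9, 36.12 and 63.8 in *PHYC* wild type and 9.50, 14.6 and 22.1 in *phyC*-null. It rose by 4.75 in *phyB*-null, without overlap, and fell by 1.27 in *phyC*-null, with overlap. *ATHB2-B* rose by 6.26 in *phyB*-null and had -0.55 in *phyC*-null.

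The difference was also called at the other bHLH members. *bHLH47-like1-A* had a difference of 5.24 ± 0.35 and *bHLH47-like2-A* of 1.54 ± 0.14 (SE). *PIL1-like-A* had 1.30 ± 0.17, *BIM-A2* had 1.80 ± 0.19 and *BIM-B2* had 1.52 ± 0.12 (SE). The *SPL14*-like genes, of the SBP-box family, rose in both mutants. *SPL14-like-A* had log2 fold changes of 1.02 and 0.78 and *SPL14-like-B* had 1.82 and 1.62, with differences of 0.24 ± 0.21 and 0.19 ± 0.31 (SE) that were not called.

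Auxin genes were mixed, with 7 of 14 positive and 3 negative, beside 2.59% and 3.37% of all tested loci. *TAR-A2* and *TAR-B2*, which encode enzymes related to the tryptophan aminotransferase of auxin synthesis, had differences of 2.32 ± 0.36 and 2.52 ± 0.21 (SE). *TAR-B2* was 388, 478 and 625.1 in *PHYB* wild type, 1063, 1389 and 1635 in *phyB*-null, 392.1, 699 and 1004 in *PHYC* wild type and 283, 346 and 457 in *phyC*-null. It rose in *phyB*-null (1.53), without overlap, and fell in *phyC*-null (-0.99), with overlap. The AUX/IAA repressor genes *IAA-B12*, *IAA-B15*, *IAA-A16*, *IAA-B17* and *IAA-A19* had differences from 0.62 to 2.80, and *IAA-B15* rose in *phyB*-null (1.27) and fell in *phyC*-null (-0.60). *ARF-B9*, of the auxin response factors, fell in both mutants, by 6.79 and 3.01, with a difference of -3.78 ± 1.43 (SE) that was not called (adjusted P = 0.091 in edgeR). The genes *ARF-B6* and *ARF-B17* fell in *phyB*-null and had differences of -1.74 ± 0.21 and -1.66 ± 0.22 (SE), as did *WAT1-like-B2* (-1.80 ± 0.30, SE). At *ARF-B6* and *ARF-B17* the wild types differed by 1.18 and 1.01 on the log2 scale (adjusted P = 2.38e-07 and 8.13e-06 in edgeR). The mutants differed there by -0.56 and -0.65. The wild types were not called apart at *WAT1-like-B2* (adjusted P = 0.945 in edgeR). *PIN3-like-B*, related to auxin efflux carriers, had 0.71 (adjusted P = 0.048 in edgeR), and was called only without *phyC*-null replicate 1 of experiment 2.

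Genes of other hormones were called in *phyB*-null and not in *phyC*-null. *BZR1-like-A* and *BZR1-like-B*, related to a transcription factor of the brassinosteroid response, had differences of 2.70 ± 0.22 and 2.56 ± 0.21 (SE). The A copy was 86.5, 113 and 226 in *PHYB* wild type, 614, 819.8 and 983 in *phyB*-null, 112, 149 and 297 in *PHYC* wild type and 95.9, 157 and 204 in *phyC*-null, with the *phyB*-null range above the others. *ACC oxidase-B*, of ethylene synthesis, had 2.21 ± 0.32 (SE). *ACC synthase-A*, of the preceding step, had 4.01 ± 0.79 (SE), a call lost without *PHYC* wild type replicate 3 of experiment 1 (difference 3.65, adjusted P = 0.0115 in edgeR). The 3 PYL4-like abscisic acid receptor genes fell in *phyB*-null. *PYL4-like-A1* had a difference of -2.56 ± 0.39, *PYL4-like-B1* of -1.48 ± 0.37 and *PYL4-like-B2* of -0.93 ± 0.23 (SE), and the last 2 calls were lost in 13 and 7 of the 32 fits without a single library. The wild types differed at *PYL4-like-A1* by 1.43 and at *PYL4-like-B1* by 1.05 on the log2 scale (adjusted P = 9.78e-05 and 0.00192 in edgeR). They were not called apart at *PYL4-like-B2* (adjusted P = 0.0693 in edgeR). The mutants were not called apart at *PYL4-like-B1* (-0.43, adjusted P = 0.211 in edgeR).

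Of the growth genes, 4 of 9 had a positive and 2 a negative difference, beside 2.59% and 3.37% of all tested loci. *PROG1-4B* and *PROG1-5A*, 2 loci that share 1 transcript and are named by chromosome, had 2.55 ± 0.25 and 3.102 ± 0.43 (SE). *TZP-A* and *TZP-B*, related to an Arabidopsis zinc-finger gene of light-dependent growth, fell in *phyB*-null by 1.34 and 1.41, with differences of -1.01 ± 0.14 and -1.28 ± 0.11 (SE). *LNG-1-like-A* rose in both mutants, and its difference of 1.46 was lost in 22 of the 32 fits. *XTH-like-B* and *BSH-B* rose in *phyB*-null, with differences of 2.88 ± 0.95 and 0.71 ± 0.20 (SE) that edgeR did not call (adjusted P = 0.0451 and 0.0178) and DESeq2 did (adjusted P = 0.00227 and 0.0084). In edgeR *BSH-B* was called without *PHYC* wild type replicate 1 of experiment 1 (adjusted P = 0.00566). *GT-A1* had 3.38, just inside the threshold (adjusted P = 0.00998 in edgeR), and was lost in 25.

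Of the 5 cold-tolerance genes, 2 rose and 1 fell in both mutants. *WCOR15-A* was 3.96, 6.95 and 66.5 in *PHYB* wild type, 583, 961 and 1269 in *phyB*-null, 12.2, 27.1 and 70.7 in *PHYC* wild type and 306, 629.7 and 2088 in *phyC*-null. Neither mutant overlapped its wild type, and the difference of 1.61 ± 0.54 (SE) was not called (adjusted P = 0.0475 in edgeR). It was called without *PHYB* wild type replicate 4 of experiment 1 (difference 2.02, adjusted P = 0.00929 in edgeR). *WCS19a-B* also rose in both, with a difference of 1.60 ± 0.95 (SE) that was not called. *WCOR14-B* rose in *phyB*-null (5.40) and had 1.48 in *phyC*-null, which was not called. Its difference of 3.92 ± 1.07 (SE) was missed by edgeR (adjusted P = 0.014) and called by DESeq2 (adjusted P = 2.11e-06), and in edgeR with library totals, with no filter or without *phyB*-null replicate 2 or 4 of experiment 1. *WCOR413-A* rose in *phyB*-null alone, with 1.99 ± 0.44 (SE). Its mean normalized counts were 26.9 in *PHYB* wild type, 110.6 in *phyB*-null, 98.5 in *PHYC* wild type and 102.2 in *phyC*-null. The wild types differed at this gene (adjusted P = 0.00203 in edgeR). *ICE-B41*, related to an Arabidopsis inducer of cold-responsive genes, fell by 3.09 in *phyB*-null and 1.196 in *phyC*-null, a difference of -1.90 ± 0.31 (SE; adjusted P = 5.57e-05 in edgeR).

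The microRNA precursor loci held changes in either mutant. *miR5200-A* (7AS scaffold 4238714, 3318 to 5569) is the precursor of a grass microRNA that represses *FT* genes in Brachypodium. It was 74.0, 148 and 1307 in *PHYB* wild type, 47.7, 93.2 and 251 in *phyB*-null, 31.7, 85.7 and 168 in *PHYC* wild type and 811, 1125 and 1979 in *phyC*-null. All *phyC*-null libraries were above all *PHYC* wild-type libraries, whereas the *PHYB* genotypes overlapped. It fell in the first mutant and rose in the second. The log2 fold changes were -1.34 and 3.74, with a difference of -5.08 ± 0.42 (SE; adjusted P = 2.32e-10 in edgeR). In *PHYB* wild type the gene was at 154.0 to 1307 in experiment 1 and 74.0 to 141 in experiment 2. *miR5200-B* rose in *phyC*-null (2.23), with 0.42 in *phyB*-null and a difference of -1.81 ± 0.34 (SE). *miR393b-A* and *miR156g-A* rose in *phyB*-null, with differences of 3.12 ± 0.45 and 1.45 ± 0.23 (SE). The wild types also differed at each (adjusted P = 0.00974 and 7.68e-13 in edgeR). Mean normalized counts of *miR156g-A* were 30.3 in *PHYB* wild type, 113.5 in *phyB*-null, 182.8 in *PHYC* wild type and 219.4 in *phyC*-null. Its *phyB*-null mean was thus below both *PHYC* means.

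At loci where the *PHYC* lines had next to no reads, edgeR and DESeq2 parted. *miR530-A* (chromosome 2A, 45376799 to 45378090) had a lowest, median and highest normalized count of 8.90, 12.4 and 24.3 in *PHYB* wild type, 6081, 6973 and 7259.5 in *phyB*-null, 0, 0 and 0 in *PHYC* wild type and 0, 0 and 1.30 in *phyC*-null. In the *PHYC* lines this came to 0 reads in wild type and 3 in the mutant, and the adjusted P of the difference was 0.986 in edgeR and 2.94e-13 in DESeq2. *miR530-B*, with 1 read in all 16 *PHYC* libraries, gave 1 and 7.58e-13. DESeq2 also called *FT-like_chr5-1-A*, *IAA-A12* and *LNG-2-like-A*, and neither tool called *FT-like_chr2-A*. The wild types differed at both *miR530* loci (adjusted P = 2.38e-11 and 3.58e-09 in edgeR). Over all loci, 81 called in *phyB*-null had at most 3 reads in the 16 *PHYC* libraries, 73 of them higher, and edgeR called 0 of the 81 in the difference. Another 29 called in *phyC*-null had at most 3 reads in the 16 *PHYB* libraries, also with 0 called.

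The difference between the effects equals the gap between the mutants minus the gap between the wild types, and the kinds of loci were unlike in these gaps. The wild types of the 2 lines differed at 16212 loci (17.9%) and the mutants at 22693 (25.1%). Among the differing loci the shares were 42.2% and 70.8%. The mutants but not the wild types were called apart at 2899 differing loci, the wild types but not the mutants at 1360, both at 909 and neither at 211. These gaps are measured in the same libraries as the difference, so the shares describe it and do not test it.

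Loci higher in *phyC*-null alone were the kind in which wild-type gaps were most frequent. A wild-type gap was called at 73.6% of them and a mutant gap at 42.4%, against 34.1% and 74.97% of the loci higher in *phyB*-null alone. At 42 of the 330 the *PHYC* wild type was at or below 5% of the *PHYB* wild type. The growth run and the line cannot be told apart in these gaps.

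**Figure D4:**
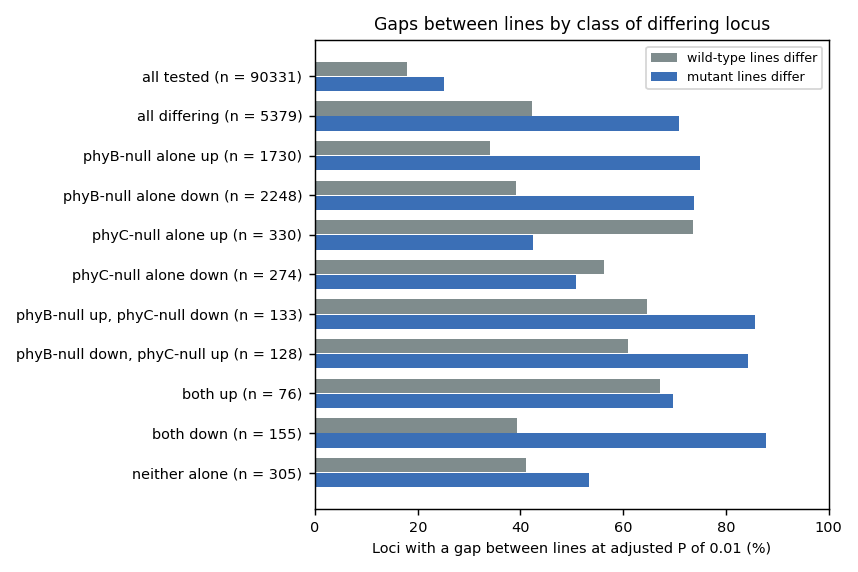
Percent of loci (x axis, from 0) at which the *PHYB* and *PHYC* wild types (grey bars) or the mutants (blue bars) differed at an adjusted P of 0.01, for all tested loci, all differing loci and each kind of differing locus (y axis, with the number of loci). The blue bar is the longer in every row but those of loci changed in *phyC*-null alone, where the grey bars reach 73.6% and 56.2%.

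The loci of the largest difference were examined in each kind, 3 per kind and direction with a mean of at least 50 normalized counts. *td-k45_contig_46252* (chromosome 1B, 258339801 to 258344887), higher in *phyC*-null alone, was 274, 326 and 382 in *PHYB* wild type, 275, 309.9 and 341 in *phyB*-null, 0, 2.14 and 6.58 in *PHYC* wild type and 167, 199 and 218 in *phyC*-null. Only the *PHYC* wild type was low, and the difference of -6.31 ± 0.22 (SE; adjusted P = 5.59e-20 in edgeR) was made up of a wild-type gap of 6.97 and a mutant gap of 0.66. *td-k25_contig_15979* on chromosome 7A was likewise at 0 to 4.07 in *PHYC* wild type and at 54.07 or more in each other library. *td-k31_contig_38235* on chromosome 1B was at 0 to 7.60 in *PHYC* wild type, but ranged from 2.73 to 957 within *PHYB* wild type.

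*Traes_7AS_988EC03B9* (chromosome 7A, 28452027 to 28457595), lower in *phyC*-null alone, had the reverse order. It was 4.94, 7.83 and 10.9 in *PHYB* wild type, 7.80, 9.89 and 13.6 in *phyB*-null, 267, 309 and 611 in *PHYC* wild type and 5.82, 9.68 and 18.4 in *phyC*-null. Only the *PHYC* wild type was high, with no overlap, and the difference was 5.602 ± 0.38 (SE; adjusted P = 1.32e-12 in edgeR). *KukriC2851_4*, also on chromosome 7A, had 815 ± 483 (SD, n = 8; range 4.25 to 1421) in *PHYC* wild type and means of 2.21 to 6.73 elsewhere, and its call was lost without *phyB*-null replicate 4 of experiment 2 (difference 7.11, adjusted P = 0.0261 in edgeR). *td-k55_contig_76148* on chromosome 3A was at 0 to 2.04 in *phyC*-null and 88.8 to 130.3 in its wild type, while both *PHYB* genotypes had libraries at 0.

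Among loci with opposite changes, *Traes_2AS_7E47A2541* (2AS scaffold 5304980, 5175 to 5731) was 0, 0.456 and 2.66 in *PHYB* wild type, 51.5, 143 and 199 in *phyB*-null, 178, 298 and 478 in *PHYC* wild type and 0, 1.15 and 2.08 in *phyC*-null. It was high in *phyB*-null and in *PHYC* wild type and near 0 in the others, which held 5 and 9 reads, and the difference was 15.48. *Traes_2AS_315383305*, on another scaffold of the same arm, had means of 1.53 in *PHYB* wild type, 284 in *phyB*-null, 687 in *PHYC* wild type and 5.33 in *phyC*-null. *td-k55_contig_4494_td-k31_contig_5074* on arm 5AS rose by 2.91 and fell by 8.11. It ranged from 0 to 188.5 in *PHYB* wild type and from 170.7 to 336.9 in *phyB*-null, so the *PHYB* genotypes overlapped.

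Among those with the reverse signs, *Traes_2BL_6E8246DF3* (2BL scaffold 7962402, 425 to 1057) was 823, 1078 and 1291 in *PHYB* wild type, 702, 761 and 850.3 in *phyB*-null, 4.62, 15.3 and 23.6 in *PHYC* wild type and 875, 1058 and 1118 in *phyC*-null. Its larger change was in the *PHYC* line, with log2 fold changes of -0.43 and 6.25. *contig79538* on arm 3AS had -5.96 and 2.002. It ranged from 0 to 107.7 in *PHYC* wild type and from 63.7 to 114.2 in *phyC*-null, so the *PHYC* genotypes overlapped. *td-k61_contig_82537* (6BL scaffold 4263075, 1407 to 4521) was 491, 572 and 826 in *PHYB* wild type, 26.2, 40.8 and 50.3 in *phyB*-null, 22.4, 57.6 and 76.5 in *PHYC* wild type and 239, 291 and 567 in *phyC*-null. Both mutants stood clear of their own wild type, and the ranges of *phyB*-null and *PHYC* wild type overlapped. The log2 fold changes were -4.01 and 2.52, with a difference of -6.53 ± 0.24 (SE; adjusted P = 4.85e-19 in edgeR). The wild types differed as well, by 3.43 on the log2 scale (adjusted P = 1.33e-15 in edgeR).

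**Figure D5:**
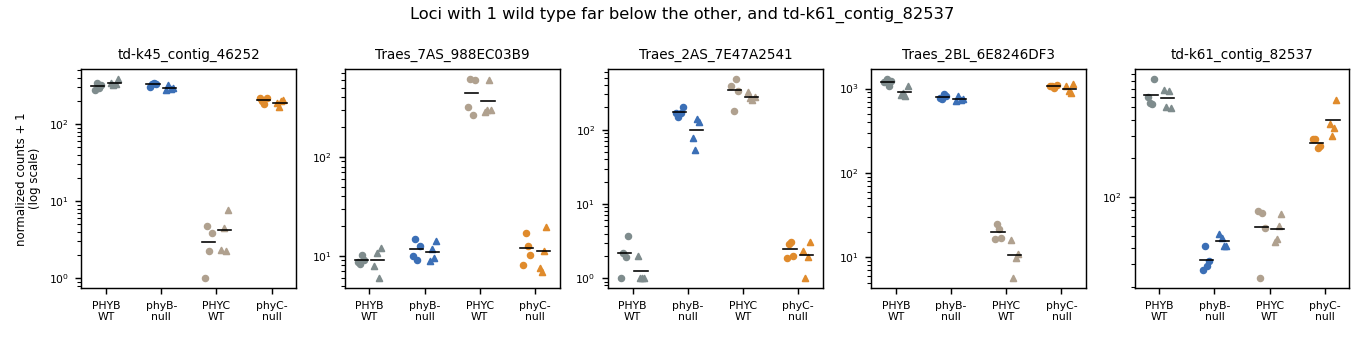
Normalized counts plus 1 (y axis, log scale, a separate range in each panel) of 5 loci in every library, by genotype (x axis), with experiment 1 as circles, experiment 2 as triangles and a bar at the mean of 4 libraries. In every panel 1 wild type lies below the other, without overlap. At *Traes_2AS_7E47A2541* and *td-k61_contig_82537* each mutant also lies apart from its own wild type, in opposite directions.

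Of the loci raised most in *phyB*-null alone, 1 is *GA20ox-B2*, described above, and the others also had low wild types in both lines. A locus of *td-k41_contig_43863* on chromosome 2B had mean normalized counts of 2.73 in *PHYB* wild type, 1141 in *phyB*-null, 1.58 in *PHYC* wild type and 0.848 in *phyC*-null, a difference of 9.77 ± 1.02 (SE). The locus of the same transcript on chromosome 2A, at 29589204 to 29592617, rose in both mutants, with means of 17.6 in *PHYB* wild type, 1373 in *phyB*-null, 12.4 in *PHYC* wild type and 22.05 in *phyC*-null. The next locus on chromosome 2A, *Traes_2AL_9FD39E3F9* at 29592790 to 29594971, had means of 4.07 in *PHYB* wild type, 1071 in *phyB*-null, 0.641 in *PHYC* wild type and 0.386 in *phyC*-null. Its call was lost without *PHYC* wild type replicate 1 of experiment 2 (adjusted P = 1 in edgeR).

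Of the loci lowered most in *phyB*-null alone, *contig42184* on chromosome 7B, whose best protein match is an ABC transporter of family C, was at 144 to 501 in *PHYB* wild type and had 1 read over the 8 *phyB*-null libraries. It was at 188 to 410.5 in *PHYC* wild type and 0 to 414 in *phyC*-null. *Traes_1AL_A785A010E* on chromosome 1A was at 0.902 to 10.4 in *phyB*-null, but ranged from 3.99 to 7827 within *PHYB* wild type and from 112 to 7318 within *PHYC* wild type, so that the *PHYB* genotypes overlapped. *Traes_1BL_A4F8B229A*, on arm 1BL, had -8.93 in *phyB*-null and 2.27 in *phyC*-null. It ranged from 5.32 to 4141 in *PHYB* wild type and from 0 to 7.80 in *phyB*-null, so the *PHYB* genotypes overlapped here too.

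Among loci higher in both, *Traes_1BL_D34C62E8F* on arm 1BL rose further in *phyC*-null, by 7.69 against 2.14 in *phyB*-null. It had means of 43.1 in *PHYB* wild type, 187 in *phyB*-null, 1.08 in *PHYC* wild type and 234 in *phyC*-null. The wild types differed by 5.22 on the log2 scale (adjusted P = 7.58e-05 in edgeR), whereas the mutants were not called apart (adjusted P = 0.571 in edgeR). The 3 loci of the largest difference among those lower in both were all on chromosome 3A and fell further in *phyB*-null. *Traes_3AS_48FDCD285*, which matches boron transporter 2 of wheat, had -4.64 in *phyB*-null and -0.68 in *phyC*-null. *Traes_3AL_60B2CFF36* had -4.58 and -1.46, and *Traes_3AS_FC81ABB98*, which matches nuclease S1, had -4.34 and -1.30. Of the loci called in neither mutant singly, the 6 examined had differences from 1.40 to 1.61 and from -1.97 to -1.85. The calls of *Traes_6BS_0C04E7178*, *Traes_4AS_7C350C88F* and *td-k35_contig_79604* were lost in 7, 6 and 4 of the 32 fits without a single library.

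Experiments 1 and 2 were separate sets of libraries, and the difference was compared between them. It passed the threshold at 2374 loci (2.63%) in experiment 1 alone and at 1715 (1.9%) in experiment 2 alone. Of the experiment 1 loci, 93.4% had the same sign in experiment 2, and of the experiment 2 loci 95.2% had the same sign in experiment 1, beside 61.2% of all tested loci. The median size was 1.69 in experiment 1 and 0.91 in experiment 2 for the first set, and 1.92 in experiment 2 and 1.26 in experiment 1 for the second. The experiments shared 733 calls of like sign and 2 of unlike sign.

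The difference itself differed between the experiments at 3 loci (0.00332%) in edgeR, where 8038 had an unadjusted P under 0.05, and at 134 in DESeq2. At each of the 3, groups of 4 libraries stood apart. *Traes_1BS_C012FD5DC* (chromosome 1B) was at 287 to 416 in *phyC*-null of experiment 1 and 20.4 to 33.6 in *phyC*-null of experiment 2. *Traes_3AS_CFDB631D5* (chromosome 3A) was at 14.6 to 28.6 in *PHYC* wild type of experiment 1 and 193 to 233 in that of experiment 2. *Traes_6AS_DE66A9B31* (chromosome 6A) was at 15.2 to 35.6 and 93.8 to 154.3 in *phyC*-null and at 9.73 to 39.9 and 60.7 to 115 in *PHYB* wild type of experiments 1 and 2. The *PHYC* experiments used separate growth chambers with different lamp ballasts, and in those lines the chamber and the experiment cannot be told apart. The *PHYB* experiments were run in sequence in the same chamber, and the shift in *PHYB* wild type was not tested for a cause. Because the lines were run separately, experiments of the same number in the lines did not share a growth run.

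Differing loci were found on all 14 chromosomes, from 5.07% of tested loci on chromosome 3B to 6.63% on chromosome 4B. Of loci with a mean of at least 50 normalized counts 11.2% differed, and of those with a mean under 10 1.06% did. The A and B copies could be compared at 4461 transcripts that matched 1 locus in each genome. Both copies differed at 51, in the same direction at 46, and a single copy differed at 291, where the other had the same sign at 207 (71.1%), beside 58.7% of all pairs. Reads that match both copies were left out by the mapping-quality filter, so levels of near-identical copies are uncertain.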

How the data were processed

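RNA from leaf tissue was sequenced in 32 libraries. The authors trimmed the reads with Scythe and Sickle, aligned them with GSNAP to the chromosome arms of genomes A and B in the IWGSC survey sequence of Chinese Spring, kept uniquely mapped reads and deposited raw read counts per locus, made with htseq-count on 150754 loci merged from mapped transcripts. Positions are those of the deposited annotation on that assembly. Whether strand was used in counting is not given in the sources used here, so reads of a gene and of an overlapping antisense transcript cannot be told apart.

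A negative binomial model of 8 group means was fitted in edgeR 4.0.16 (R 4.3.3), with RLE factors over the 32 libraries, to the loci that had 3 or more reads in 2 or more libraries, and contrasts were tested with the quasi-likelihood test at an adjusted P of 0.01. Alternatives were DESeq2 1.42.0, other factors, filters and thresholds, a replicate block, thinned libraries and left-out libraries. The script was tested on simulated data. Named genes were every listed gene matched to 1 locus and, per kind and direction, the 3 loci of largest difference with a mean of at least 50 normalized counts and one sign in both experiments. The members and lists were chosen with earlier results of these data known. Fold changes from loci near 0 reads depend on the prior count of edgeR (0.125). The study describes the 4 libraries of a group as biological replicates.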

Additional observations from a re-analysis of the deposited data

Results flagged for a closer look

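The effects of the mutations differed at 5379 loci by the test of the difference itself. At 261 of them the changes were called in both mutants with opposite signs. At 3 loci the difference also changed between the experiments, with adjusted P values in edgeR of 0.00415 for *Traes_1BS_C012FD5DC*, 0.00131 for *Traes_6AS_DE66A9B31* and 0.00552 for *Traes_3AS_CFDB631D5*.

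Of 136 groups of 4 libraries examined at the plotted loci, 8 held a library set far apart from the other 3, and chance gives about 1 in 20. Within its own group, *GA20ox-B2* was low in *phyB*-null replicate 3 of experiment 1, at 1355 normalized counts, and high in *phyC*-null replicate 3 of experiment 2, at 15.9. *ATHB2-A* stood apart at 677 in *phyB*-null replicate 2 of experiment 1, and *WCOR15-A* at 44.8 in *PHYC* wild type replicate 2 of experiment 1. *miR530-A* was at 0.950 in *phyC*-null replicate 2 of experiment 1, and *miR5200-A* at 1979 in *phyC*-null replicate 4 of experiment 2. *Traes_7AS_988EC03B9* was at 597 in *PHYC* wild type replicate 3 of experiment 2, and *Traes_2AS_7E47A2541* at 0.989 in *PHYB* wild type replicate 1 of experiment 2. At *miR530-A* and *Traes_2AS_7E47A2541* the rest of the group was at 0, where any value above 0 is flagged, so these flags say little.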

How the results depend on the processing

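None of the 89 called differences at named loci changed sign under any alternative. The signs at other loci were not followed. Differences that were not called did so at 4 named genes, *FT-A1* (-0.60 to 0.70), *GATA-B1* (-0.47 to 0.61), *TaAGL33-A* (-0.23 to 0.79) and *CO-A1* (-0.16 to 0.66), and the median over all loci went from -0.000679 to 0.0573 with library totals. With an adjusted P of 0.05, 10208 loci differed (4688 higher, 5520 lower), of which 7084 were called in *phyB*-null alone, 1326 in *phyC*-null alone, 607 in opposite directions, 718 in one direction and 473 in neither, and 10003 were called in *phyC*-null. With a difference of at least 1 as well, 3163 differed (1422 higher, 1741 lower; 2189 *phyB*-null alone, 139 in one direction, 152 in neither). When both experiments had to pass, 733 differed (331 higher, 402 lower; 460 *phyB*-null alone, 80 *phyC*-null alone, 158 opposite, 35 in one direction, 0 in neither). Library totals without factors gave 172 loci called in neither. DESeq2 called 7346 differing loci, 437 of them in one direction, and 134 between the experiments.

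With a replicate block 3625 loci differed (1541 higher, 138 in one direction, 161 in neither), 2742 were called in *phyC*-null and 0 between the experiments. The replicate numbers did not pair the samples, since 4 of 16 pairs correlated above 0.1 (r -0.47 to 0.19).

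Leaving out replicates, singly or 1 number from all groups, gave 2548 to 5894 differing loci, 1124 to 2476 higher and 1424 to 3518 lower. The kinds held 1875 to 4344 in *phyB*-null alone, 321 to 699 in *phyC*-null alone, 126 to 308 opposite, 64 to 302 in one direction and 126 to 348 in neither. The counts were 12645 to 22710 for *phyB*-null and 1953 to 5539 for *phyC*-null. The gaps and the comparison of experiments were refitted only without 1 replicate number of every group, which gave 10425 to 11654 for the wild-type gap, 15778 to 18582 for the mutant gap and 0 to 24 between the experiments. With only 1 library left out 4512 to 5894 differed, and the larger effect was in *phyB*-null at 77.9% to 83.2%. Of the 89 named calls, 76 were kept whichever library was left out, but 41 were lost when both experiments had to pass, 15 to 19 without each replicate number, 10 with the replicate block (*TaAGL41-B* among them), 7 with thinned libraries, 5 each with library totals and with a difference of at least 1, and 1 with TMM. The cause of these changes was not tested. At low depth a missing call says little, and 60423 loci had too few reads to test.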
